A study of Mus musculus with 40 samples.

Results

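The genes described here are the 10 genes that carry the light response of cone photoreceptors, Opn1sw, Opn1mw, Arr3, Gnat2, Gnb3, Gngt2, Pde6c, Pde6h, Cnga3 and Cngb3. They were chosen by symbol, through the Ensembl identifiers of the normalized count table, and were all found, as 10 of its 54307 genes. RNA had been sequenced from the retina and the choroid of 20 mice, killed 3 days after 6 laser spots per eye were set to induce choroidal neovascularization, which gave 40 libraries. Each tissue held 5 control mice and 5 Tgfbr2ΔEC mice on control food (-PLX) and 5 of each on food with PLX5622 (+PLX), an inhibitor of the CSF1 receptor that depletes mononuclear phagocytes (MP). Tgfbr2ΔEC mice were homozygous for floxed Tgfbr2 and carried a tamoxifen-inducible Cre recombinase under the Cdh5 promoter, which is active in endothelial cells, and controls were Tgfbr2 fl/fl littermates without the recombinase. All mice were on a C57BL/6J background, received the laser, and had tamoxifen eye drops for 5 days from 6 to 7 weeks of age. Of the choroid, only the central region that held the lesions was sequenced. Mice are named by the number in the library names, 1 to 5 for control -PLX, 6 to 10 for Tgfbr2ΔEC -PLX, 11 to 15 for control +PLX and 16 to 20 for Tgfbr2ΔEC +PLX, and the retina and the choroid with the same number were taken as tissues of the same mouse.

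In a cone, light turns an opsin into its active form, which switches on the G protein transducin. Transducin relieves a phosphodiesterase of its inhibitory subunit, the enzyme breaks down cyclic GMP, and cation channels held open by cyclic GMP close, until an arrestin stops the opsin. Cones are a small minority of mouse photoreceptors, rods use a paralog for nearly every step, and the choroid, the vascular layer behind the retina, has no photoreceptors of its own.

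The 10 genes lie on 7 chromosomes of GRCm39, and all are protein-coding. The cone opsins are Opn1sw, for short wavelengths (chr6:29376670-29388467, minus strand), and Opn1mw, for middle wavelengths (chrX:73171070-73194366, plus strand), and the cone arrestin is Arr3 (chrX:99649101-99662099, plus strand). Cone transducin is made of the alpha subunit Gnat2 (chr3:107999932-108008748, plus strand), the beta subunit Gnb3 (chr6:124811202-124817238, minus strand), which ON bipolar cells also use, and the gamma subunit Gngt2 (chr11:95725953-95736565, plus strand). The cone phosphodiesterase has the catalytic subunit Pde6c (chr19:38121229-38172406, plus strand) and the inhibitory subunit Pde6h (chr6:136900830-136945863, plus strand), and the channel is built from Cnga3 (chr1:37253515-37304128, plus strand) and Cngb3 (chr4:19280850-19510623, plus strand). Gngt2 overlaps Abi3, a gene on the opposite strand that microglia are known to express, by 233 bp of exon, and Cnga3 overlaps the antisense RNA gene Gm69908 by 792 bp. Libraries were stranded, but whether strand was used in counting is not stated, so reads of these genes and their antisense neighbours may not have been separated.

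The 250 bases before the start of the canonical transcript (GENCODE release M39, GRCm39) were searched for TAATCC on either strand, the core that the photoreceptor factor CRX and its relative OTX2 bind. It was found in 3 of the 9 windows reported here, against 7.0% of 21260 promoters of protein-coding genes. The match began 74 bases before the start in Gnat2, 59 in Gnb3 and 209 in Pde6c. Exons of other annotated transcripts of the same gene covered 173 bases of the Gnat2 window, its match included. They covered 165 bases of the Pde6c window, where the match lay outside them. A match is a description of the letters, not a measured site. The windows of Opn1sw, the opsin with the higher level, and of Gnb3, the member with the highest level in retina, are shown 5′ to 3′ on the strand of the gene, from chr6:29380513-29380762 and chr6:124817239-124817488, with the match in capitals and no annotated exon in either. The Opn1sw window lies within the gene, in an intron of a longer annotated transcript.
Opn1sw: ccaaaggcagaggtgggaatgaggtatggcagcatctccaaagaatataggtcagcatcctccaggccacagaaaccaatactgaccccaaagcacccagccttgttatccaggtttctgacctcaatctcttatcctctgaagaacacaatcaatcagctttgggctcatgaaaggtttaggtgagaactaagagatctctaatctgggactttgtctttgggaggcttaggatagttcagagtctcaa
Gnb3: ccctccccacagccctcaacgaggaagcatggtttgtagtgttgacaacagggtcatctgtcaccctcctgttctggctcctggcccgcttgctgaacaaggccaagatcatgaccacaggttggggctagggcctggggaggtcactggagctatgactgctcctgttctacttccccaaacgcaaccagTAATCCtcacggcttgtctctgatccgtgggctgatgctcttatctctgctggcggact

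The libraries held roughly 20940403 to 30421581 reads in retina and 21720522 to 28174821 in choroid, estimated from the steps between low values, and 3 reads or fewer were taken as the floor, which covers counting error alone. Tgfbr2, the deleted gene, did not differ by genotype in choroid, with 10503 ± 425 normalized counts in controls and 10176 ± 1077 in Tgfbr2ΔEC mice without PLX (SD, n = 5 each; log2 difference -0.05, adjusted p = 0.925 by limma), so the choroid libraries do not check the endothelial deletion. MP depletion was visible, since 14 of 15 MP markers were called lower with PLX in the controls of either tissue. Those not called were Aif1 in retina (log2 difference -2.58, adjusted p = 0.171, limma) and Tmem119 in choroid (0.01), both named after their values were seen. Sex was not in the labels and its marker genes were unevenly spread, by log2 differences of -4.48 to 4.11 between the genotypes in +PLX choroids. The choroid of mouse 15 (control +PLX) stood apart, with 13 rod markers summing to 136223 normalized counts against 10571 to 25688 in the other 4 of its group. The limma comparisons of the members between choroid groups are given with and without it.

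In retina, the members reached their full range of levels, and each mouse expressed all of them. Per kilobase of canonical transcript, the mean over 20 retinas was highest for Gnb3, at 5651 ± 1108 normalized counts per kb (SD), followed by Opn1sw (3712 ± 584), Arr3 (2568 ± 593), Gnat2 (1762 ± 199) and Opn1mw (1389 ± 246). Gngt2 (911 ± 267 per kb) and Pde6c (847 ± 95.9) came next, then Pde6h (301 ± 90.3), and the channel subunits Cngb3 (93.9 ± 16.3) and Cnga3 (54.0 ± 7.90) were lowest. Neighbours whose means plus or minus 1 SD overlapped were Opn1sw and Arr3, Gnat2 and Opn1mw, Opn1mw and Gngt2, and Gngt2 and Pde6c. The overlap describes the spread between mice. It is not a test of a difference, since all genes were measured in the same 20 retinas. The places of Pde6h and Gngt2 depend on the transcript: the canonical Pde6h transcript is 5941 bp long and the median coding transcript 392 bp, which would put Pde6h at 4556 per kb, and with 597 bp in place of 2012 bp Gngt2 would stand at 3069 per kb.

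Opn1sw was steady between retinas. Without PLX the 5 controls had 6819, 9862, 8752, 7354 and 7031 normalized counts and the 5 Tgfbr2ΔEC mice 8020, 11570, 9042, 8060 and 9383. With PLX the controls had 10355, 8960, 7392, 8702 and 9468, and the Tgfbr2ΔEC mice 10739, 10654, 6859, 10160 and 9748. All 4 groups overlapped, and the highest retina was 1.70-fold above the lowest. Opn1mw ranged from 1112 to 2471 normalized counts, and its ratio to Opn1sw, as normalized counts not divided by length, was 19.3% ± 3.29 (SD, n = 20), from 13.7% to 23.9%.

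Arr3, which stops the active opsin, was between 2529 and 5548 normalized counts, with means of 3036 ± 848 in control -PLX, 3348 ± 698 in Tgfbr2ΔEC -PLX, 3662 ± 536 in control +PLX and 3934 ± 1018 in Tgfbr2ΔEC +PLX retinas (SD, n = 5 each). The transducin subunit Gnat2 lay between 3044 and 4234, a 1.39-fold range over all 20 retinas, and the catalytic subunit Pde6c between 1840 and 2648, a 1.44-fold range, the narrowest ranges among the 10 genes. Gnb3 ranged from 8024 in mouse 10 to 15895 in mouse 11. The channel subunits ranged from 196 to 390 normalized counts for Cnga3 and from 323 to 584 for Cngb3, and for both, as for the transducin subunits, the ranges of the 4 groups overlapped.

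Pde6h, the inhibitory subunit, and Gngt2 were the most variable members in retina. Pde6h had 887, 2411, 2151, 1265 and 1583 normalized counts in control -PLX and 1240, 1683, 1350, 1550 and 1630 in Tgfbr2ΔEC -PLX retinas. With PLX it had 3493, 1639, 1852, 2000 and 1675 in controls and 2008, 1948, 2041, 1852 and 1459 in Tgfbr2ΔEC mice. The highest and the lowest retina, mouse 11 and mouse 1, were both controls, on opposite diets. Gngt2 was also highest in mouse 11, at 3408 normalized counts, and lowest in mouse 10, at 1363. The spread within groups, as an SD on log2(normalized count + 1), was 0.392 for Pde6h and 0.391 for Gngt2 and lowest for Gnat2 (0.169) and Pde6c (0.173), against a median of 0.42 over all genes tested.

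**Figure D1:**
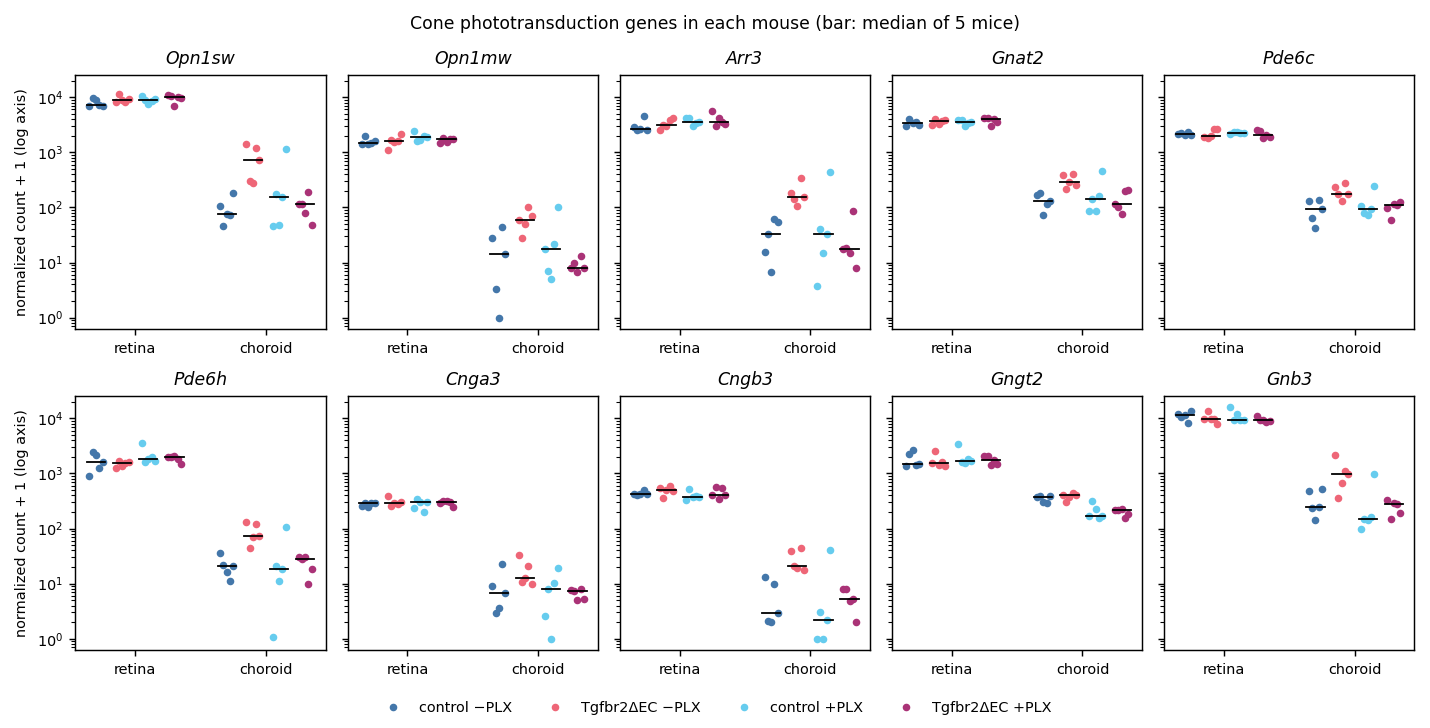
Normalized count + 1 of each cone gene (log axis) in every retina and choroid, coloured by genotype and diet, with 1 point per mouse and a bar at the median of 5 mice. In retina the 4 groups of every gene overlap, in choroid the Tgfbr2ΔEC -PLX mice lie high for most genes but not for Gngt2, and for Gngt2 the mice on PLX lie low.

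Neither genotype nor diet moved a member detectably in retina. limma was run on log2(normalized count + 1) over 23243 genes with the 4 groups in a single fit, and an adjusted p at or under 0.05 (Benjamini-Hochberg over all genes) was called. Between genotypes 0 of 10 members were called without PLX and 0 with PLX, where 0.0% of all genes were called in either diet. With PLX 0 of 10 members were called in controls, where 0.736% of genes were, and 0 in Tgfbr2ΔEC mice, where 0.516% were, and most of those called genes were lower with PLX. The difference of the genotype effect between diets (interaction) called 0 members and 0.0% of genes. At an unadjusted p under 0.05 the count of members was 0 in all 5 comparisons. No member separated its groups without overlap, against 0.478% and 0.422% of genes between genotypes, without and with PLX, and 1.46% and 1.24% between diets, in controls and in Tgfbr2ΔEC mice.

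The intervals bound what could have been missed. Between genotypes the log2 differences ran from -0.14 for Gnb3 to 0.21 for Opn1sw without PLX and from -0.22 for Gnb3 to 0.17 for Cngb3 with PLX. The farthest 95% bounds of any member were -0.58 and 0.53 without PLX and -0.62 and 0.49 with PLX. Between diets Pde6h had the largest estimate in both genotypes, 0.39 in controls (95% interval -0.08 to 0.86, adjusted p = 0.991, limma) and 0.32 in Tgfbr2ΔEC mice (-0.15 to 0.79, adjusted p = 1.0), while the other 9 members lay between -0.14 and 0.30. Over the same retinas, 14 of 15 MP markers fell in controls, with a median log2 difference of -5.88, and 15 of 15 in Tgfbr2ΔEC mice, with a median of -5.26. The other genes of the light response were as quiet: 0 of 9 rod counterparts, 0 of 14 genes that rods and cones share (among them Grk1, the opsin kinase, and Rcvrn, recoverin), 0 of 11 genes listed as other cone genes, not all of them particular to cones, and 0 of 10 photoreceptor transcription factors were called in any of the 5 comparisons.

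**Figure D2:**
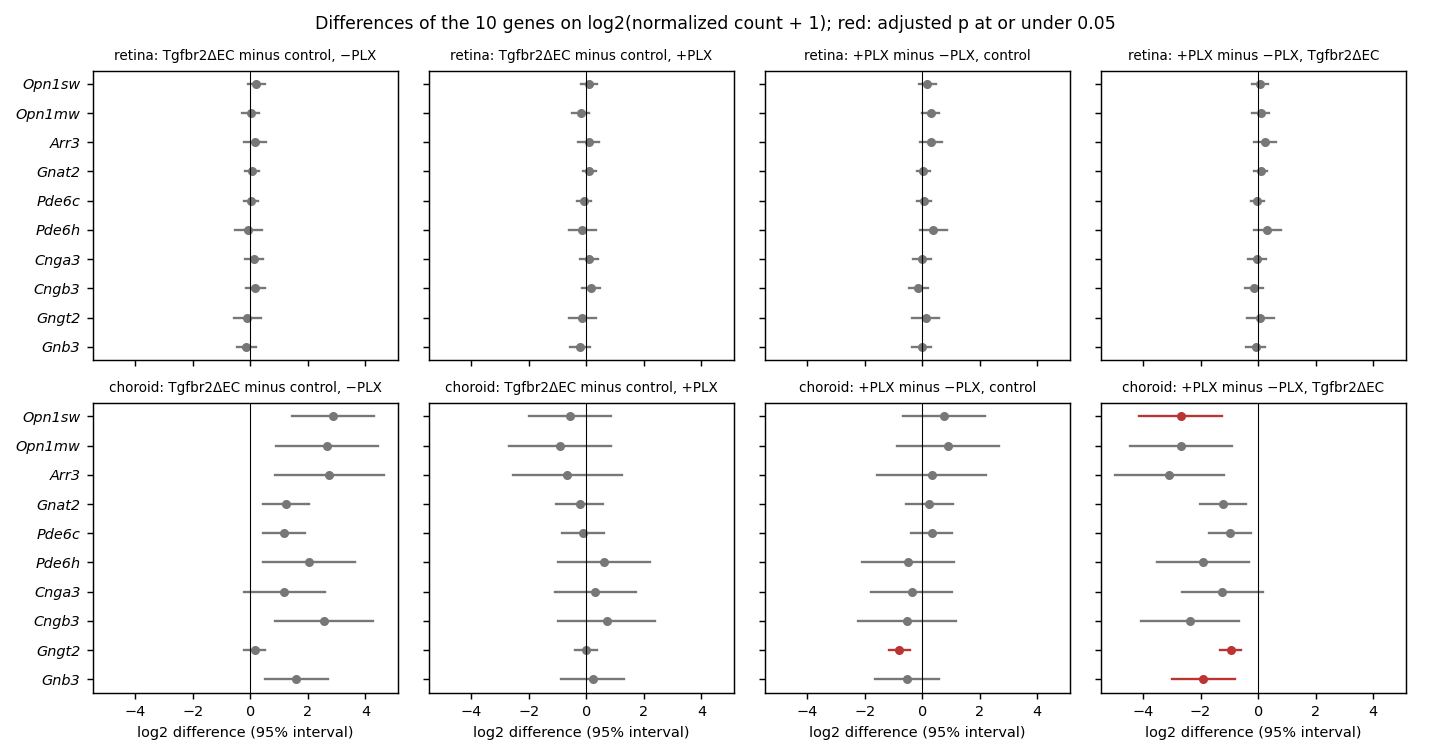
Differences between groups on log2(normalized count + 1) with 95% intervals from limma, for the 10 genes in 4 comparisons of each tissue, with called genes in red. The retina intervals all include 0, and in choroid the differences of Tgfbr2ΔEC -PLX mice are large and wide for most genes, while the intervals of Gngt2 are narrow.

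Whether members rose and fell together between retinas was asked on deviations from the group means, over 45 pairs of members. Pearson's r ran from -0.579 to 0.852 with a median of 0.085, 9 pairs were above 0.5 and 18 were negative. The closest pair was Opn1sw with Gnat2, an opsin and its transducin (r = 0.852), and Pde6h and Gngt2, the members with the shortest median coding transcripts, followed each other as well (0.786). Gnb3 and Cngb3 ran against each other (-0.579). The correlations are over 20 mice whose libraries share depth and scaling, and they are given as a description.

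Members were also set beside the rod gene of the same role, and Opn1mw beside Opn1sw, in 22 relations over both tissues, with permutation p-values adjusted over the 22. In retina Gnat2 followed Gnat1 (r = 0.817, Spearman's ρ = 0.826, p = 1e-05, adjusted p = 4.4e-05, 0.000132 for ρ), and without the 2 retinas farthest from the median of Gnat1 r was 0.786. Pde6h followed Pde6g (r = 0.744, ρ = 0.654, p = 0.00015, adjusted p = 0.000275, 0.00435 for ρ), and r was 0.534 without 2 retinas. Gngt2 followed Gngt1 (r = 0.792, ρ = 0.538, p = 0.0002, adjusted p = 0.000338, 0.023 for ρ). Without 2 retinas r was 0.771, but ρ was 0.377 with an adjusted p of 0.162. Gnb3 ran against Gnb1 (r = -0.85, ρ = -0.818, p = 2e-05, adjusted p = 6.29e-05, 0.000147 for ρ), and r was -0.809 without 2 retinas. Cngb3 ran against Cngb1 (r = -0.519, ρ = -0.543, p = 0.0176, adjusted p = 0.0257, 0.023 for ρ), but this rested on 2 retinas, without which r was -0.246. Of the relations reported here, the other 4 in retina did not pass by Pearson's r over the 20 retinas, though Opn1mw with Opn1sw passed on deviations from group means (r = 0.476, permutation p = 0.0329, adjusted p = 0.0426; 0.437 and 0.0643 over the values themselves). Arr3 with Sag, the arrestins, had an r of -0.349 (ρ = -0.421, permutation p = 0.13, adjusted p = 0.143, 0.0752 for ρ), and -0.613 without 2 retinas, which passed (adjusted p = 0.0113, permutation test). In choroid the libraries fell into clusters by rod RNA and no pooled r of the levels is given. As a description, the r of the deviations from the group means over the 20 choroids was 0.512 for Gnb3 and Gnb1 (-0.838 over the retinas) and 0.863 for Cngb3 and Cngb1 (-0.569 over the retinas), and it was 0.202 and 0.686 over 19 choroids without mouse 15, a choice made after seeing the data. For Gngt2 and Gngt1 it was 0.052 with mouse 15 and 0.285 without it. The other cone and rod pairs given here lay between 0.675 (Gnat2 and Gnat1) and 0.835 (Arr3 and Sag), and between 0.414 and 0.696 without mouse 15.

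**Figure D3:**
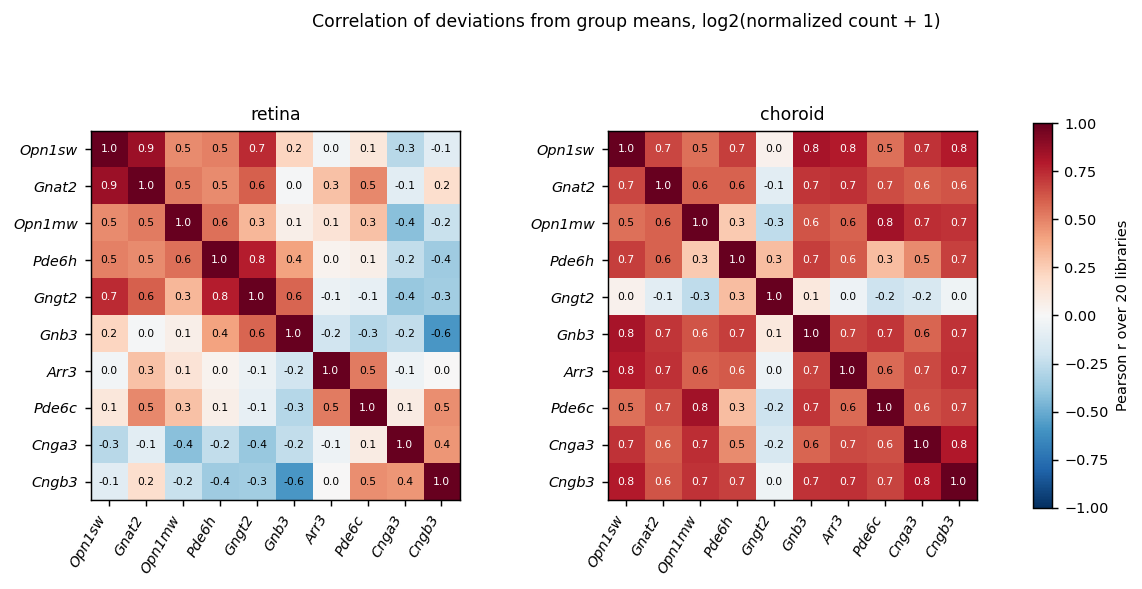
Pearson r between every pair of the 10 genes over 20 retinas (left) and 20 choroids (right), on deviations of log2(normalized count + 1) from group means, from -1 (blue) to 1 (red). In retina blocks of red and blue lie side by side, and in choroid the 36 pairs without Gngt2 lie between 0.264 and 0.838 and Gngt2 forms a pale row, while without mouse 15, not drawn, 2 of the 36 were negative and pairs with Gngt2 reached 0.601.

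The 10 genes outside the list whose levels over the 20 retinas were most like the mean z-score of the members, of 17170 with a mean of at least 10, had r between 0.796 and 0.847. They were the long noncoding RNA C330013E15Rik (r = 0.847), Reep6, a rod protein (0.844), the noncoding Gm45441 (0.827), Get4 (0.817), 1600014C23Rik (0.815), Inca1 (0.811), Prxl2a (0.805), the potassium channel Kcnj14 (0.8), Cabp5, a calcium-binding protein of bipolar cells (0.799), and Pgam1, a glycolytic enzyme (0.796). Of the members themselves, Gnat2 had the highest r with the score (0.874), followed by Opn1sw (0.75), Pde6h (0.684), Gngt2 (0.638), Opn1mw (0.591), Pde6c (0.548) and Arr3 (0.445), whereas Gnb3 (0.117), Cngb3 (0.04) and Cnga3 (-0.013) were lowest. Each member is part of the score, which raises its r, so these values cannot be set against those of the genes outside the list.

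All members were far lower in choroid. All 10 passed the test as higher in retina, where 82.0% of 24317 genes were called in some direction, and each retina exceeded each choroid for all 10, against 15.1% of genes. The log2 difference was smallest for Gngt2, at 2.72 (SE 0.10, adjusted p = 4.79e-24, limma), a 6.60-fold difference, and for Pde6c, at 4.25, and largest for Opn1mw, at 6.66 (SE 0.31, adjusted p = 3.38e-21), or 101-fold. In bulk tissue, fewer cells of a type and less RNA per cell cannot be told apart. The low members reached the floor in choroid: Cngb3 had 3 reads or fewer in 8 of 20 choroids, 2 of them at 0, Cnga3 in 4, 1 of them at 0, Opn1mw in 2, 1 of them at 0, and Arr3 and Pde6h in 1 each.

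As a share of the same mouse's retina, the choroid held a median of 15.2% of Gngt2 over 20 mice, while the other 9 members had medians from 0.738% (Opn1mw) to 5.61% (Pde6c). The 8 rod counterparts reported had medians between 1.19% (Cnga1) and 2.18% (Sag), except the beta subunit Gnb1, which many cell types use, at 12.1%. The ratio of a cone gene to its rod counterpart within a library differed between the tissues for 6 of the 9 pairs reported here, Opn1mw over Opn1sw among them (sign-flip permutation test over 20 mice, adjusted over 99 tests). Cone genes were higher relative to rod genes in choroid for Gngt2 over Gngt1 (log2 difference retina minus choroid -3.15, adjusted p = 0.00033, lower in retina in 20 of 20 mice), Pde6c over Pde6b (-1.87, adjusted p = 0.00033), Gnat2 over Gnat1 (-1.42, adjusted p = 0.00033) and Cnga3 over Cnga1 (-1.10, adjusted p = 0.00337). Gnb3 over Gnb1 was the reverse (1.92, adjusted p = 0.000495), and Opn1mw over Opn1sw was higher in retina (0.95, adjusted p = 0.0153). Ratios with members near the floor in choroid depend on the pseudocount. Within a tissue 0 of 72 tests of these ratios passed between genotypes or diets, and 8 had an unadjusted p under 0.05, with 0.00794 the smallest that 5 mice against 5 allow in the exact permutation test. Cnga3 over Cnga1 between choroid genotypes without PLX (log2 difference -1.71) and Pde6c over Pde6b with PLX in Tgfbr2ΔEC choroids (1.52) were at that p. Their adjusted p was 0.0873 (exact permutation test). A single ratio at that p could not pass over the 99 tests, so 0 of 72 does not show steady ratios.

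**Figure D4:**
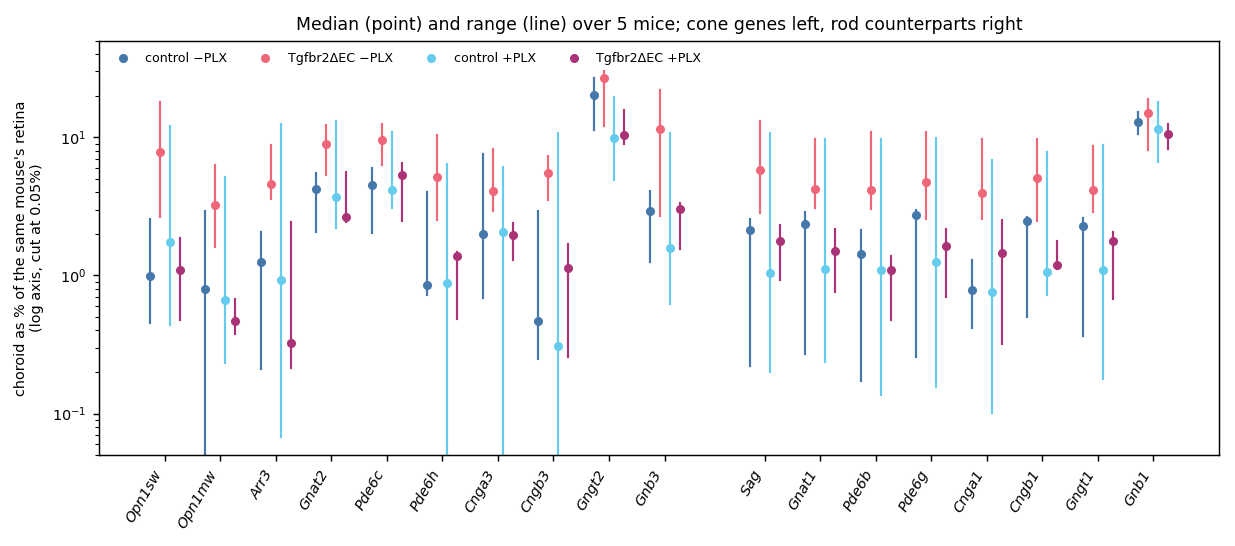
Choroid value as a percent of the retina of the same mouse (log axis) for the 10 cone genes and 8 rod counterparts, as median and range over 5 mice in each group, with the axis cut at 0.05%. Most genes lie near 1% to 10% with Tgfbr2ΔEC -PLX highest, while Gngt2, with a median of 15.2% over all mice, and Gnb1, with 12.1%, lie above the rest.

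In choroid without PLX, Opn1sw was the member with the largest difference between the genotypes. The 5 controls had 106, 44.5, 76.6, 73.0 and 179 normalized counts, and the 5 Tgfbr2ΔEC mice 1443, 307, 271, 1199 and 738. The groups did not overlap, and the lowest Tgfbr2ΔEC choroid was above the highest control. The log2 difference was 2.88 (SE 0.69, 95% interval 1.44 to 4.31) with an adjusted p of 0.168 (limma), which does not pass. All 10 members had positive estimates, from 0.15 for Gngt2 (95% interval -0.22 to 0.52) to 2.88, with a median of 1.82 against 0.01 over all genes, 8 had an unadjusted p under 0.05, and 0 were called, where 0.00423% of genes were. Opn1sw, Arr3, Gnat2, Pde6h and Cngb3, 5 of 10, had groups that did not overlap, against 2.81% of all genes.

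Arr3 and Gnat2 had the same order of groups. Arr3 had 14.6, 31.7, 5.62, 59.9 and 52.6 normalized counts in the controls and 179, 144, 105, 346 and 152 in the Tgfbr2ΔEC mice (log2 difference 2.74, adjusted p = 0.257, limma). Gnat2 had 168, 178, 71.6, 116 and 132 in the controls and 392, 215, 292, 402 and 249 in the Tgfbr2ΔEC mice (1.24, adjusted p = 0.230, limma). Mice 6 and 9 held the highest values of Opn1sw, Arr3, Gnat2, Gnb3 and Cngb3 among these 10 choroids. Pde6h averaged 20.3 ± 9.45 normalized counts in controls and 87.0 ± 37.1 in Tgfbr2ΔEC mice (SD, n = 5 each). Cngb3 had 1.02 to 12.3 normalized counts in controls, 3 of which were at or under the floor, and 16.9 to 42.8 in Tgfbr2ΔEC mice.

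That comparison depended on mouse 15, which is in neither group but enters the shared estimate of the spread. Without it, 5 members were called higher in Tgfbr2ΔEC choroids, with 411 genes in all (1.74%), and with the fit restricted to the 2 groups 4 members and 303 genes (1.28%). Rod RNA moved with the same mice: the 13 rod markers summed to 8776 to 33307 normalized counts in control and 55094 to 139350 in Tgfbr2ΔEC choroids without PLX. The median log2 difference was 2.32 for the 9 rod counterparts, 2.16 for the 14 shared genes, 1.59 for the 11 listed as other cone genes, 2.64 for the 9 bipolar cell markers and 2.08 for the 11 markers of amacrine and ganglion cells, with 0 called in each list. It was -0.25 for 7 markers of retinal pigment epithelium, 0.14 for 8 of endothelium and 0.08 for 8 of Mueller glia. The Mueller glia markers are not particular to retina here. Their median sum in control -PLX mice was 206012 normalized counts in choroid against 88626 in retina. Between the tissues 4 of the 8 were called higher in retina and 3 lower, so their median does not show whether Mueller glia RNA moved with the neural genes. With the mean of the rod markers as a covariate the median of the members was 0.29, 0 had an unadjusted p under 0.05, and Cnga3 turned from 1.19 to -0.50.

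With PLX, the genotypes overlapped for all 10 members in choroid (0.512% of genes did not), 0 members were called, where 0.00423% of genes were, and log2 differences ran from -0.91 for Opn1mw to 0.70 for Cngb3. Without mouse 15 they ran from -0.27 for Opn1mw to 1.64 for Cngb3 (adjusted p = 0.989, limma), 8 in place of 4 were positive, and Opn1sw (0.17), Arr3 (0.28), Gnat2 (0.17) and Pde6c (0.17) turned positive. The +PLX controls had 45.2, 177, 47.4, 151 and 1134 normalized counts of Opn1sw and the +PLX Tgfbr2ΔEC mice 113, 116, 78.5, 190 and 46.1. Mouse 15 held the value of 1134, and the other 9 choroids lay between 45.2 and 190. The interaction of genotype and diet called 0 members and 0.0% of genes. All 10 estimates were negative, from -3.58 for Opn1mw (adjusted p = 0.503, limma) to -0.16 for Gngt2, and 5 had an unadjusted p under 0.05. Without mouse 15 the estimates ran from -2.93 for Opn1mw to -0.22 for Gngt2, with 0 called and 5 again at an unadjusted p under 0.05. With the rod markers as a covariate Cnga3 (0.67), Pde6h (0.22) and Cngb3 (0.20) were positive, the median over the 10 members was -0.35 in place of -1.45, and 1 member had an unadjusted p under 0.05.

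In Tgfbr2ΔEC choroids the cone genes were lower with PLX. All 10 members separated the diets without overlap, against 6.52% of genes, and 3 were called, all lower, where 4.06% of genes were called. These were the opsin Opn1sw (log2 difference -2.69, SE 0.69, adjusted p = 0.0284, limma) and the transducin subunits Gnb3 (-1.90, SE 0.53, adjusted p = 0.0460) and Gngt2 (-0.96, SE 0.18, adjusted p = 0.00189). Gnb3 had 2124, 361, 664, 1094 and 971 normalized counts in the 5 mice without PLX and 330, 146, 287, 280 and 188 in the 5 with PLX, so that 361 in mouse 7 lay just above 330 in mouse 16. The other 7 members had log2 differences from -3.08 for Arr3 (adjusted p = 0.0625) to -0.97 for Pde6c (adjusted p = 0.137). Neural genes outside the list moved beside them: 1 of 9 rod counterparts fell (Cngb1, log2 difference -2.10), 2 of 14 shared genes, 2 of the 11 listed as other cone genes (Kcnv2, a potassium channel subunit that rods use as well, -2.01, and Gja10, a connexin of horizontal cells, -1.93), 3 of 9 bipolar cell markers and 2 of 11 markers of amacrine and ganglion cells, with a median of -2.02 over the rod counterparts. With the rod markers as a covariate 1 member was called, Gngt2 (-0.95), and the median over the members was -0.48 in place of -1.91, with Opn1sw at -0.95, Arr3 at -0.70 and Gnb3 at -0.56. The count of members called was 9 with these 2 groups fitted alone, beside 5.84% of genes, 7 without mouse 15, beside 5.96%, 5 without mouse 11, beside 4.26%, and 1 without mouse 6, 9, 10, 16, 18 or 20, beside 2.76% to 3.8%. The call of Gnb3 was lost in 14 of the 20 fits that left out a mouse, with an adjusted p (limma) of up to 0.147, and with a score of the sex genes as a covariate (0.0522), where Opn1mw and Arr3 were called. The call of Opn1sw was lost in 6 of the 20, and that of Gngt2 in 0.

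Gngt2 differed from the other members in choroid. In the 10 mice without PLX it had 368, 391, 305, 284 and 388 normalized counts in controls and 405, 306, 367, 437 and 412 in Tgfbr2ΔEC mice. With PLX it had 167, 319, 222, 152 and 168 in controls and 212, 215, 226, 156 and 182 in Tgfbr2ΔEC mice. Of the 10 choroids with PLX, 9 lay below the lowest without it, 284, and the exception was mouse 12 at 319. Mouse 15, with the highest Opn1sw of its group, had 168, close to the lowest value of Gngt2.

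Gngt2 fell with PLX in controls too, by 0.80 on the log2 scale (SE 0.18, 95% interval -1.17 to -0.43, adjusted p = 0.0102, limma), which is 1.74-fold, and it was the only member called there, 1 of 10 beside 3.75% of genes. No member separated the diets without overlap in controls, against 4.21% of genes, and the other 9 log2 differences ran from -0.52 for Gnb3 to 0.89 for Opn1mw. That range rested on mouse 15, without which it was -1.45 (Cngb3, adjusted p = 0.310, limma) to 0.25 (Opn1mw), Gnb3 was at -1.09 and Arr3 (-0.63) and Gnat2 (-0.16) turned negative. The median of all 10 was -0.06 with mouse 15 and -0.68 without it, while Gngt2 stayed called (-0.74, adjusted p = 0.0332, limma). With the rod markers as a covariate the differences of Gngt2 were -0.80 in controls (adjusted p = 0.0127) and -0.95 in Tgfbr2ΔEC mice (adjusted p = 0.0183). With controls fitted alone the adjusted p was 0.0752. The difference between the genotypes in this drop was not called, at -0.16 on the log2 scale with a 95% interval of -0.69 to 0.36 (interaction, adjusted p = 0.993, limma).

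MP markers moved with Gngt2. The 15 markers summed to 57145 to 70719 normalized counts in the 10 choroids without PLX and to 17112 to 29399 in the 10 with PLX, 14 of 15 fell in each genotype, with medians of -1.77 in controls and -2.16 in Tgfbr2ΔEC mice, and none of the markers was at 0. The highest sum with PLX, 29399, was in mouse 12, the mouse with the highest Gngt2 on that diet. The antisense neighbour Abi3 had 489 ± 70.4 normalized counts in control -PLX and 639 ± 128 in Tgfbr2ΔEC -PLX choroids, and 463 ± 109 and 422 ± 89.9 with PLX (SD, n = 5 each). Its log2 differences with PLX were -0.10 in controls (adjusted p = 0.876, limma) and -0.60 in Tgfbr2ΔEC mice (adjusted p = 0.0751). Gngt2 is also known from myeloid cells, and the part of MP and of Abi3 reads in its levels was not tested.

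**Figure D5:**
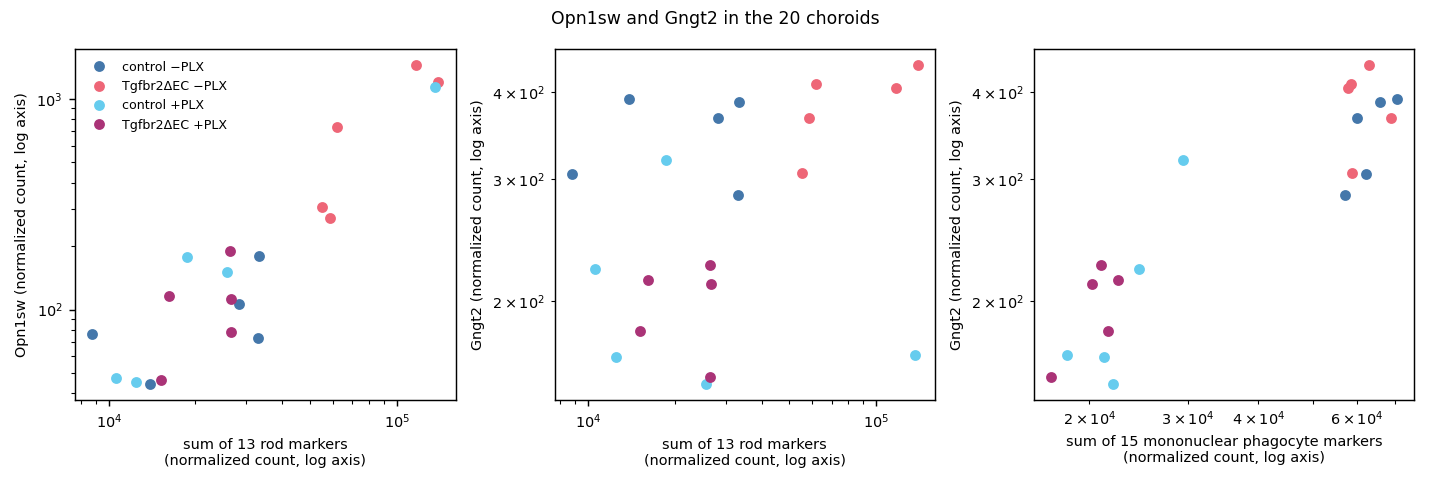
Opn1sw (left) and Gngt2 (middle) in the 20 choroids against the sum of 13 rod markers, and Gngt2 against the sum of 15 MP markers (right), all as normalized counts on log axes with 1 point per mouse. Opn1sw rises along the rod sum over all groups, mouse 15 included at 1134, whereas Gngt2 is split by diet, with 9 of 10 mice on PLX below 284.

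How the members varied together between choroids of the same group depended on mouse 15. On deviations from group means, the 36 pairs without Gngt2 had r between 0.264 and 0.838, with a median of 0.673, and the 9 pairs with Gngt2 lay between -0.253 and 0.312, with a median of -0.047. Without mouse 15 the 36 pairs lay between -0.071 and 0.779, with a median of 0.448, and 2 of them were negative. Over all 45 pairs the median r was 0.63 with it and 0.418 without it, and 33 and 13 pairs were above 0.5. Without it the 9 pairs with Gngt2 lay between -0.164 and 0.601, with a median of 0.15. The spread within groups on the log2 scale was 0.284 for Gngt2, below the median of 0.402 over all genes tested, and between 0.583 (Pde6c) and 1.59 (Arr3) for the other 9.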

How the data were processed

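RNA of 20 retinas and 20 choroids had been made into stranded poly(A) libraries and read as single reads. Per the labels and the study's methods, reads were quantified by the authors with salmon 1.10.1 on GRCm39, imported with tximport and normalized with DESeq2 1.36.0. The methods describe retina and choroid as analysed apart after quantification, but the deposited signal per gene, a normalized count, carries a scaling over both: the median ratio to the geometric mean over 15800 genes above 0 throughout was 1.0082 in each of the 40 libraries, and 0.9831 to 1.0359 within a tissue. Steps between low values gave the worth of 1 read, but only 50.0% to 77.8% of low values lay within 0.1 of a whole read, so no count test was run.

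Symbols and positions came from GENCODE release M39 (53700 of 54307 identifiers matched). The promoter count left out chromosome 18. Differences on log2(normalized count + 1), a scale that understates changes of low genes, were tested by limma (3.58.1, under R 4.3.3; variance trend on). Genes averaging 1 or more entered (23243 in retina, 23619 in choroid, 24317 over both), the 4 groups of a tissue shared 1 fit, and p-values were adjusted over all genes (Benjamini-Hochberg). The procedure was tested on simulated data. Ratios of a cone to a rod gene were compared by two-sided permutation tests, exact for 5 against 5 and with 100000 resamples otherwise, and the smallest p that 100000 resamples can give is 1e-05. Other steps ran in scipy 1.17.1, pandas 2.3.3 and numpy 2.4.6 under Python 3.11.15.

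The named genes are the 10 members, their 9 rod counterparts, Tgfbr2 and the 10 genes most like the members in retina; members of other lists are given as counts, and the few named from them, and Abi3 and mouse 15, were picked after their values were seen. The members, lists and tests were chosen with earlier results of these data known. Whether same-numbered retina and choroid deviate together was checked over 15687 genes: r was above 0.1 in 14 of 20 mice, from -0.197 to 0.354. The numbers come from the library names, where a retina and a choroid share each number, which was taken to mean the same mouse; the labels do not say so in words, and groups within a tissue share none. The authors' covariates, sex and an estimated neuronal percentage, are not in the labels. Alternatives were other pseudocounts, minimum means, scaling, variance settings, covariates, fits of 2 groups, a replicate block and leaving out each mouse. A batch was not given. Some results were left out and are not reported here, although their tests stay in the families over which p-values were adjusted and their values in the sums and counts of lists.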

Additional observations from a re-analysis of the deposited data

Results flagged for a closer look

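Of 80 sets of 5 libraries (10 genes in 8 groups), 15 held a library whose gap to the nearest of the others passed Dixon's critical value. The gaps were taken on normalized counts, not on the log2 scale. Chance gives about 1 in 20 only for independent sets of normally distributed values. Genes of the same library are not independent, so 15 of 80 is a description and is not read against that rate. Mouse 15, a control with PLX, was the high one in 8 of the 9 in choroid. It had 1134 normalized counts of Opn1sw (the other 4 choroids 45.2 to 177), 99.1 of Opn1mw (3.93 to 20.7), 445 of Arr3 (2.83 to 38.9) and 465 of Gnat2 (85.0 to 157). It also had 242 of Pde6c (71.2 to 106), 107 of Pde6h (0.1 to 20.3), 40.6 of Cngb3 (0.0 to 2.11) and 982 of Gnb3 (98.7 to 164), while its Gngt2 and Cnga3 did not stand out in this way. The other set in choroid was Arr3 in Tgfbr2ΔEC +PLX, where mouse 19 had 86.8 against 7.01 to 17.2.

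In retina, 6 sets were marked. Mouse 4 (control -PLX) had 4527 normalized counts of Arr3 (others 2529 to 2914) and 499 of Cngb3 (402 to 420). Mouse 11 (control +PLX) had 3493 of Pde6h (1639 to 2000) and 3408 of Gngt2 (1521 to 1856). Mouse 7 (Tgfbr2ΔEC -PLX) had 2522 of Gngt2 (1363 to 1620), and mouse 18 (Tgfbr2ΔEC +PLX) had 6859 of Opn1sw, below the 9748 to 10739 of the others.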

How the results depend on the processing

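Under all alternatives run, the count of called members stayed at 0 in the 5 retina comparisons, at 0 in the choroid genotype comparison with PLX and in the interaction, and at 10 for retina against choroid, also with mouse number as a replicate block (10 called). The choroid genotype comparison without PLX had 4 members called with 2 groups only (1.28% of genes) and 0 to 5 over fits leaving out a mouse (5 without mouse 15, 1.74% of genes). PLX in controls had 0 called with 2 groups only and 1 in each fit leaving out a mouse. PLX in Tgfbr2ΔEC choroids had 3 called (4.06% of genes), but 5 with a pseudocount of 5 (4.36%), 1 without the trend (3.32%), 1 with the rod score (2.28%), 9 with 2 groups only (5.84%), and 1 to 7 leaving out a mouse (2.76% to 5.96%; 5 without mouse 11). Of the tissue ratios, 6 to 7 of 9 passed when a mouse was left out.

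Signs turned with the rod score for Cnga3 in choroid (-0.50 between genotypes without PLX, 0.29 for PLX in Tgfbr2ΔEC) and for Pde6h (0.22), Cnga3 (0.67) and Cngb3 (0.20) in the choroid interaction, with the sex score for Gngt2 between choroid genotypes with PLX (0.08), and with a pseudocount of 5 for retina minus choroid of Pde6h over Pde6g (-0.073) and Cngb3 over Cngb1 (-0.43, adjusted p = 0.0499). Without mouse 15, choroid estimates of Opn1sw, Arr3, Gnat2 and Pde6c between genotypes with PLX turned positive, and those of Arr3 and Gnat2 for PLX in controls negative. Leaving out a mouse, that one included, turned 19 choroid estimates of 8 members, and 76 retina estimates of 9 members; other settings turned 15 in retina. Before turning, these retina estimates were at most 0.15 in size, and the largest after turning was 0.16 (Gngt2, interaction, without mouse 11). None was called. The causes were not tested. Over all genes, the called count moved by over 1.5 times from 1 to 303 (2 groups only) and 411 (without mouse 15) for genotype without PLX, from 885 to 572 (2 groups only) for PLX in controls, and from 958 to 538 (rod score) for PLX in Tgfbr2ΔEC. Depth limits Cngb3, Cnga3 and Opn1mw in choroid.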
